A study of Homo sapiens with 5 samples.

Results

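Collagens are the triple-helical proteins of the extracellular matrix, each wound from 3 alpha chains. Fibrillar collagens form the cables of connective tissue, type IV collagen forms the sheet of the basement membrane on which epithelia rest, and smaller classes link, anchor or decorate these networks. In pancreatic carcinoma most fibrillar collagen is known to be laid down by stromal cells, while epithelial cells make basement membrane collagens themselves. The genes described here are all those whose symbol has the form COL, number, A, number on a probe set assigned to a single gene. They numbered 43 of 19775 genes and were read by 112 probe sets, and the reading with the highest mean over the lines represented each gene.

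RNA was measured on 1 one-colour array for each of 5 established human pancreatic cell lines, grown by a cell repository's protocol with no treatment listed. The labels call all 5 pancreatic cancer lines. 4 of them (L3.6, SU86.86, HPAF1 and PANC1) come from pancreatic carcinomas, and HPDE is known as a duct epithelium line immortalised with papillomavirus oncogenes, which limits it as a model of normal duct. There was no second culture of any line, so no value for a line has an error of its own, and the number of arrays limits the precision. The values are deposited intensities on a linear scale, and array medians lay between 137 and 143. The 9 spike-in probe sets varied between arrays with log2 SDs of 0.10 at the median and 0.14 at most, which covers hybridisation and scanning but not culture. Differences are log2 differences of intensity plus a constant of 71.1, which understates the change of dim genes.

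Cell type markers were checked first. Of 6 epithelial markers, 5 were above background in PANC1, where the exception was the epithelial splicing factor ESRP1, and all 6 in every other line. Background here means an intensity under 140, the median of all probe sets. All 6 ranged by 2-fold or more, against 42.4% of all genes above background in at least 1 line. In PANC1 4 were at least 2-fold below the other lines' mean and 0 above it, against 5.54% and 5.38%. They were EPCAM (1715), KRT19 (847), CDH1 (320) and ESRP1 (46.5). The other KRT19 probe set above background ranged by under 2-fold. Of 11 fibroblast and stellate cell markers, between 6 (PANC1) and 7 (each other line) were above background, and their summed log2 levels ran from 87.9 in HPAF1 to 95.7 in SU86.86. Of these, PDGFRB, FAP and POSTN were below background in all 5 lines, and DCN lay between 173 and 237 in intensity. The members of that list that ranged by 2-fold or more were VIM, FN1 and THY1. VIM, the intermediate filament vimentin, was at 27257 in PANC1, 14591 in L3.6, 6637 in SU86.86, 663 in HPAF1 and 188 in HPDE. The other VIM probe set above background ranged by under 2-fold. FN1, fibronectin, was at 2353 in SU86.86, 1622 in HPDE and between 106 and 230 in the other lines. Of 6 endothelial markers 2 were above background in each line, and of 4 measured leukocyte markers 2 or 3.

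Of the 43 collagen genes, 32 (those reaching background in at least 1 line) were retained, against 75.3% of all genes, and 11 lay at background in all 5 lines. The 11 were COL4A3, COL6A3, COL6A5, COL6A6, COL15A1, COL19A1, COL20A1, COL23A1, COL24A1, COL25A1 and COL28A1. The limit falls among closely spaced values. Just inside it COL9A1 peaked at 149 and COL14A1 at 153, and just outside it COL20A1 peaked at 134 and COL25A1 at 124. With a stricter limit of 383, the 75th percentile, 15 collagen genes were above it. Each line had between 19 (HPAF1) and 25 (L3.6) collagen genes above background, and 12 of the 32 were above it in all 5 lines, against 74.2% of all retained genes.

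The retained collagens fell into a variable and a flat set. For 16 of them the highest and lowest line differed by at least 2-fold, against 42.4% of all retained genes, and for 12 by at least 4-fold, against 13.6%. The median range was 0.87 for the collagens and 0.85 for all retained genes. The other 16 ranged by 0.21 to 0.73, and with the exception of COL1A1 none of their used probe sets read more than 355.5 in any line. With probe sets able to match several transcripts left out, 23 collagens were retained and 9 ranged by 2-fold or more. COL4A5, COL9A3, COL13A1, COL18A1 and COL21A1, all among the 16, had no value under that setting. With the probe set of highest single value in any line, an alternative chosen after seeing the data, 20 of 32 ranged by that much. In the plot of collagen levels by line, the variable genes stand in blocks that differ between lines.

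**Figure D1:**
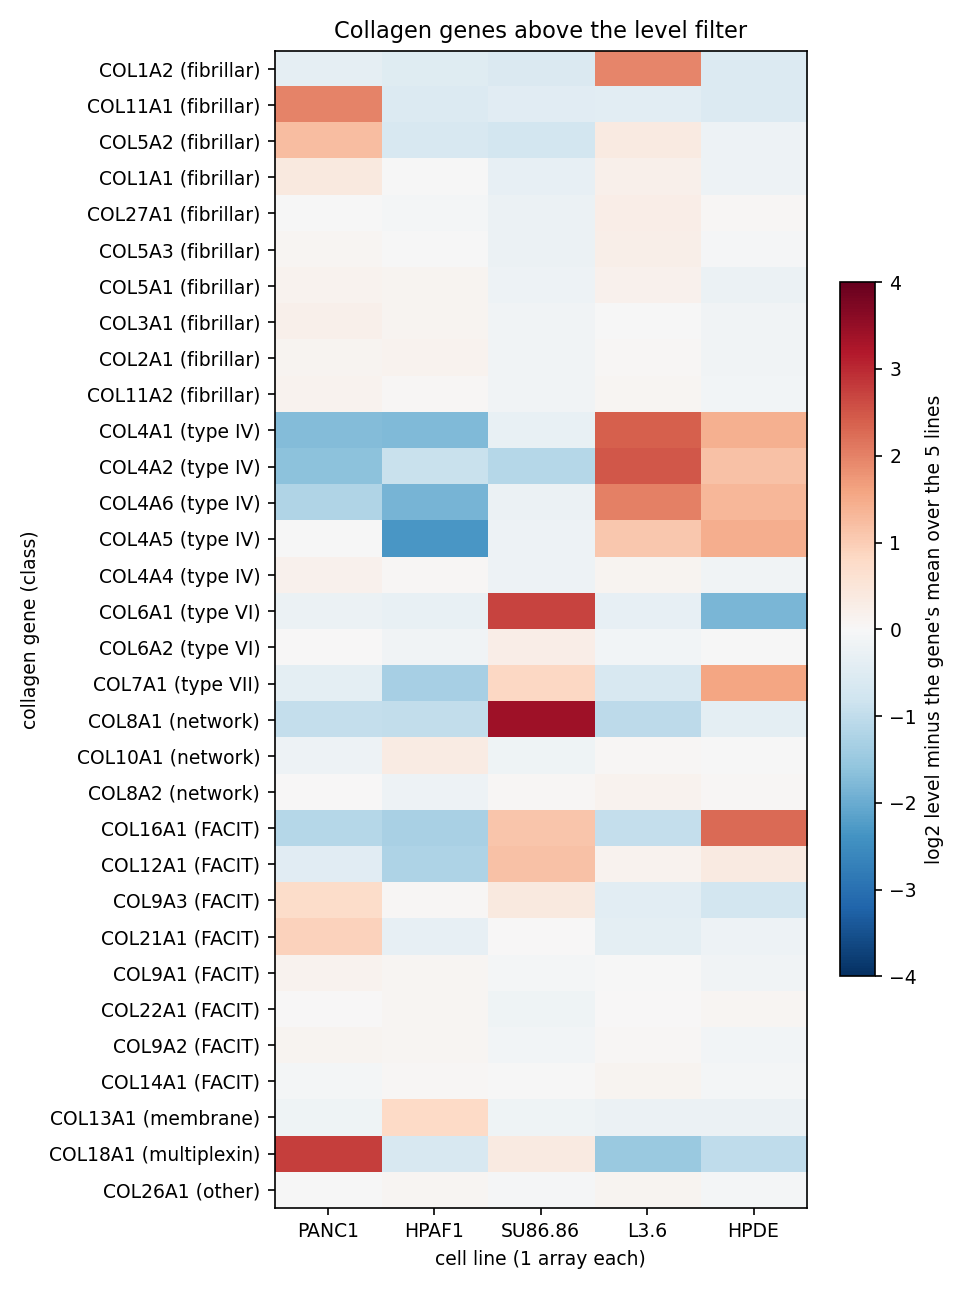
Each row is 1 of the 32 collagen genes above background in at least 1 line, ordered by class, and each column is 1 line (1 array). Colour is the log2 level minus the mean of that gene over the 5 lines. COL4A1, COL4A2 and COL4A6 are highest in L3.6, COL8A1 and COL6A1 in SU86.86, COL18A1 and COL11A1 in PANC1, and HPAF1 has few high values.

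Each line was then compared with the mean of the other 4 by limma, fitted over all 14894 retained genes with Benjamini-Hochberg adjustment. The fit takes the lone line to vary as the other 4 do, and its p-values measure the spread between lines, not between cultures. None of the 32 collagens passed an adjusted p of 0.05 in any line (0 calls). The share of all genes that did was 0.242% in HPAF1, 0.0269% in PANC1 and in HPDE, and 0.0% in the other lines. At an unadjusted p under 0.05 there were 4 collagens in PANC1 (COL5A2, COL11A1, COL18A1 and COL21A1) against 5.56% of all genes. HPDE had 1 (COL16A1) against 8.23%, L3.6 had 2 (COL1A2 and COL4A2) against 3.37%, and SU86.86 had 2 (COL6A1 and COL8A1) against 3.74%. HPAF1 had 2 (COL4A5 and COL13A1) against 10.1%. COL1A2, COL8A1, COL11A1 and COL21A1 were above background only in the line they are counted for, so they passed the level filter through that line and their spread comes from background readings. The lowest adjusted p among collagens was 0.114, for COL11A1 in PANC1, and it ranged from 0.0434 (with no level filter, where this 1 collagen passed) to 0.359 over the alternative settings.

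By size alone the lines carried different collagens. In HPAF1 8 of 32 lay at least 2-fold below the other lines' mean and 0 lay above it, against 6.3% and 6.96% of all genes. The 8 were COL4A1, COL4A2, COL4A5, COL4A6, COL7A1, COL8A1, COL12A1 and COL16A1. In L3.6 5 were higher and 3 lower, against 2.99% and 4.72% of all genes, and 4 of the higher genes encode type IV chains, with COL1A2 as the other. Without SU86.86 only 1 was lower in L3.6. In HPDE 6 were higher (COL4A1, COL4A2, COL4A5, COL4A6, COL7A1 and COL16A1) and 2 lower (COL6A1 and COL18A1), against 6.48% and 5.57%, and without PANC1 1 was lower. In SU86.86 5 were higher (COL6A1, COL7A1, COL8A1, COL12A1 and COL16A1) and 1 lower, against 5.29% and 2.59%. The single lower gene there was COL4A2, and the count became 3 without HPAF1, 2 without HPDE and 0 without L3.6. In PANC1 4 were higher (COL5A2, COL11A1, COL18A1 and COL21A1) and 5 lower (COL4A1, COL4A2, COL4A6, COL8A1 and COL16A1), against 5.38% and 5.54%. COL8A1 was above background only in SU86.86, and COL16A1 only in HPDE and SU86.86. Their counts as lower in HPAF1, PANC1 and L3.6 thus rest on high readings elsewhere. Leaving out 1 line at a time left 7 to 8 lower in HPAF1 and 4 to 5 in PANC1.

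Type IV collagen is the sheet-forming collagen of basement membranes, and its 6 genes lie in 3 head-to-head pairs, each pair starting from opposite sides of a short shared stretch. COL4A1 and COL4A2 encode the chains of the common form, COL4A5 and COL4A6 those of an epithelial form, and COL4A3 and COL4A4 chains known from kidney, lung and eye. The stretches between the starts are shown because the first pairs varied together across the lines. They are RefSeq sequences of build GRCh38.p14 on the plus strand, read towards the start of the first gene named. Capitals mark CCAAT and GGGCGG, searched with TATAAA on both strands, where CCGCCC and ATTGG are GGGCGG and CCAAT on the minus strand, and no marked motif overlaps another.
COL4A2/COL4A1: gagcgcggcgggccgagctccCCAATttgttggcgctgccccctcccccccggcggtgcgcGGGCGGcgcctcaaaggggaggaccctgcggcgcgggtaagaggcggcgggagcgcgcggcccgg
COL4A5/COL4A6: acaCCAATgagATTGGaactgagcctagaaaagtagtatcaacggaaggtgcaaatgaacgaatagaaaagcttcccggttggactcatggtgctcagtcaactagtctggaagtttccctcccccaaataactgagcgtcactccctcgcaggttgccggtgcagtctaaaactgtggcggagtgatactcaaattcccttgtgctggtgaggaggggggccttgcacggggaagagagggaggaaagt
COL4A3/COL4A4: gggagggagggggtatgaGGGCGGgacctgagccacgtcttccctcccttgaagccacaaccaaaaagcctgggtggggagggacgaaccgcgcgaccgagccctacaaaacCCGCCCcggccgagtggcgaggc

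The first stretch is the whole 126 bases between the starts of COL4A1 and COL4A2, at chr13:110307158-110307283. The second is the 250 bases before COL4A5, at chrX:108439588-108439837, out of 379 between its start and that of COL4A6. The third is the whole 135 bases between COL4A4 and COL4A3, at chr2:227164489-227164623. Guanine and cytosine made up 80.2% of the first, 51.2% of the second and 68.1% of the third. The median over all 35116 listed promoters at the matching length was 60.3%, 58.0% and 60.0%. The first stretch held 1 CCAAT, the second 2 in opposite orientations and the third 0, while 21.1%, 32.0% and 22.1% of promoter windows of those lengths held at least 1. GGGCGG occurred 1, 0 and 2 times, against 34.6%, 42.6% and 35.5% of windows. TATAAA was in none of the 3 stretches (0 matches), against 5.87%, 10.7% and 6.13%. These are letter matches and not measured binding sites.

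COL4A1 had intensities of 1730.4 in L3.6, 849 in HPDE, 209.6 in SU86.86, 32.3 in PANC1 and 29.9 in HPAF1. COL4A2 had 2109 in L3.6, 824 in HPDE, 142 in HPAF1, 108 in SU86.86 and 55.5 in PANC1. Both genes of the pair were therefore high in L3.6 and HPDE and below the limit in PANC1. HPAF1 was below it for COL4A1 and just above it for COL4A2, and SU86.86 above it for COL4A1 and below it for COL4A2. In L3.6 the difference from the mean of the other lines was 2.98 for COL4A1 (SE 1.37) and 3.09 for COL4A2 (SE 1.13), each with a limma adjusted p of 1.00. HPDE, the next line in order, was 0.97 below L3.6 for COL4A1 and 1.28 below for COL4A2. A second probe set of each gene was also above background and also had its highest level in L3.6, with ranges of 2.89 and 2.87.

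COL4A6 had intensities of 1393 in L3.6, 839 in HPDE, 237 in SU86.86, 88.0 in PANC1 and 29.2 in HPAF1, and both its other probe sets were highest in L3.6. COL4A5 had 1268 in HPDE, 959 in L3.6, 415 in PANC1, 354 in SU86.86 and 27.1 in HPAF1. The genes of this pair shared their upper and lower ends, but PANC1 was above background for COL4A5 and below it for COL4A6. HPAF1 was lower than every other line by at least 2.11 for COL4A5, a difference of -2.90 from their mean (SE 0.74, limma adjusted p = 0.299). The order of L3.6 and HPDE differed within the pair, and they stood 0.38 apart for COL4A5 and 0.69 for COL4A6. COL4A5 rests on 1 probe set, since its other one was below background, and the difference in HPDE, 1.82, was 1.05 averaged over both and 1.16 without HPAF1.

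COL4A3 was between 59.4 and 82.1 in all 5 lines and so at background. COL4A4 lay between 157 and 224, above the limit in every line but with a range of only 0.37. The third pair thus showed neither the high levels in L3.6 and HPDE nor the low level in HPAF1, as the plot of type IV chains shows.

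**Figure D2:**
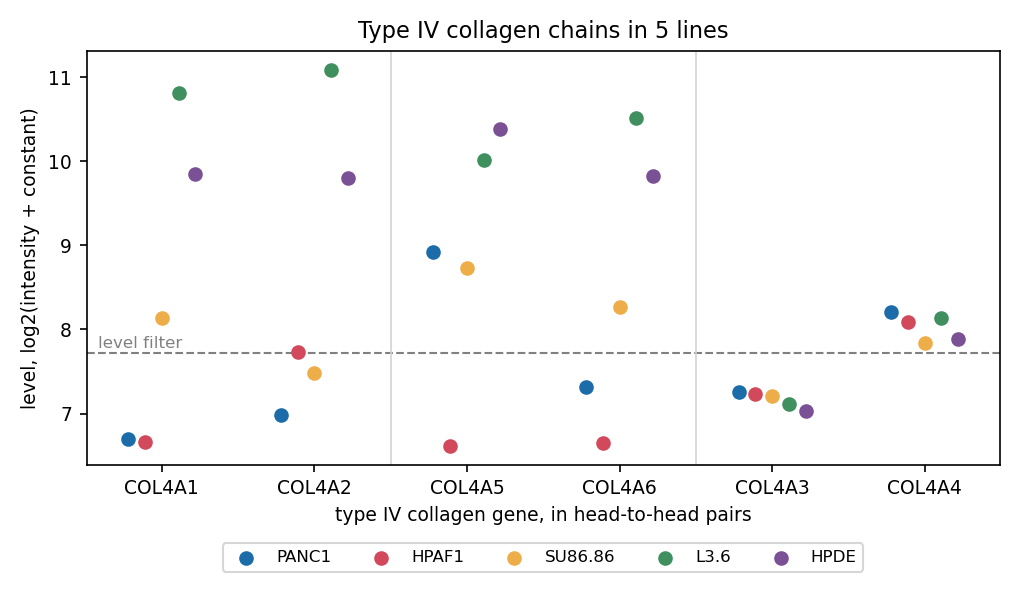
Each point is 1 line (1 array), the vertical axis is log2 of intensity plus 71.1, and the dashed line is the background limit (7.72). COL4A1, COL4A2, COL4A5 and COL4A6 have L3.6 and HPDE as their 2 highest lines, while COL4A3 is below the limit in all 5 lines and COL4A4 stays within 0.37.

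Of the other measured collagens of the epithelial basement membrane zone, COL7A1 was highest in HPDE, as COL4A5 was, and COL18A1 in PANC1. COL7A1, the anchoring fibril collagen that ties the basement membrane to the tissue beneath, had intensities of 1433 in HPDE, 828 in SU86.86, 313 in PANC1, 252 in L3.6 and 131 in HPAF1. Its difference in HPDE was 1.96 (SE 0.82, limma adjusted p = 0.642), with SU86.86 0.74 below, and a second probe set was also highest in HPDE. COL18A1, a multiplexin whose C-terminal fragment is endostatin, an inhibitor of vessel growth, was at 4816 in PANC1. It stood at 857 in SU86.86, 389 in HPAF1, 285 in HPDE and 188 in L3.6. PANC1 exceeded the next line by 2.40 and the mean of the others by 3.45 (SE 0.72, limma adjusted p = 0.426), and a second probe set ranged by 3.91 with PANC1 highest. COL18A1 was above background in every line. PANC1 was also the line with the highest VIM and with ESRP1 below background, while FN1, on the same marker list as VIM, was lowest there (106). The part of these genes in the PANC1 readings was not tested. COL15A1, the other multiplexin, was at background throughout.

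Of the 11 fibrillar genes 3 ranged by 2-fold or more on the probe set used, 2 of them highest in PANC1 and 1 in L3.6, 7 ranged by less and 1 was at background. COL1A2, the alpha-2 chain of type I collagen, had intensities of 889 in L3.6, 121 in PANC1, 105 in HPAF1, 99.4 in HPDE and 94.8 in SU86.86. L3.6 was thus the only line above background, by 2.45 over the mean of the others (SE 0.20, limma adjusted p = 0.246). The SE there rests on background readings in the other 4 lines. A second probe set ranged by 2.78 with L3.6 highest. The remaining one ranged by 0.48, and with it in place of the others (when probe sets able to match several transcripts were left out) the difference was 0.35. COL11A1, a minor fibrillar chain, was at 660.4 in PANC1 and between 56.6 and 66.5 in the other lines, which were all at background. Its difference was 2.47 (SE 0.19, limma adjusted p = 0.114), with an SE that again rests on background readings. A second probe set above background ranged by 2.42 with PANC1 highest. COL5A2, a chain that sets the diameter of type I fibrils, was at 530.1 in PANC1, 258 in L3.6, 152 in HPDE, 94.9 in HPAF1 and 85.0 in SU86.86. PANC1 stood 1.53 above the mean of the others (SE 0.47, limma adjusted p = 0.726) and 0.87 above L3.6.

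COL1A1, the alpha-1 chain of type I collagen, gave a different picture on different probe sets. The one used read 1685 in PANC1, 1453 in L3.6, 1239 in HPAF1, 1079 in HPDE and 987 in SU86.86, a range of 0.73. Another read 6005 in PANC1, 1478 in L3.6, 520.2 in HPDE, 109 in SU86.86 and 69.5 in HPAF1, a range of 5.43. A further probe set read 5125 in PANC1, 1116 in L3.6, 369 in HPDE, 105 in SU86.86 and 67.0 in HPAF1. Of the 4 unused probe sets 3 ranged by 2-fold or more, all with PANC1 highest, and the remaining one ranged by 0.57. On the second of these readings PANC1 was 3.96 above the mean of the others (SE 1.43, limma adjusted p = 0.815). On those probe sets PANC1 had the highest COL1A1 reading while its COL1A2 reading was under the limit. On the readings listed here L3.6 was the line with both chains above it. On the unlisted probe set that ranged by 2-fold or more, L3.6 read 74.7 for COL1A1, under the limit, and PANC1 331.

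COL3A1, the chain of type III collagen that is laid down with type I, likewise depended on the probe set. The one used lay between 108 and 157. A second read 408 in L3.6, 119.9 in PANC1, 43.8 in HPDE, 48.4 in HPAF1 and 47.1 in SU86.86, and another read 264 in L3.6 and at most 93.2 elsewhere. On the second, L3.6 was 1.85 above the mean of the others (SE 0.37). L3.6 was the only line above background there, so that probe set passed the level filter through L3.6 and its SE rests on background readings. COL3A1 and COL5A2 are adjacent coding genes on chromosome 2, and their highest lines on these readings were L3.6 and PANC1. Of the remaining fibrillar genes, COL2A1, COL5A1, COL5A3, COL11A2 and COL27A1 ranged by at most 0.49 on the probe set used and COL24A1 was at background. COL5A1 also had a probe set that ranged by 1.20 with PANC1 highest, and COL27A1 had one that ranged by 1.31 with HPDE highest.

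**Figure D3:**
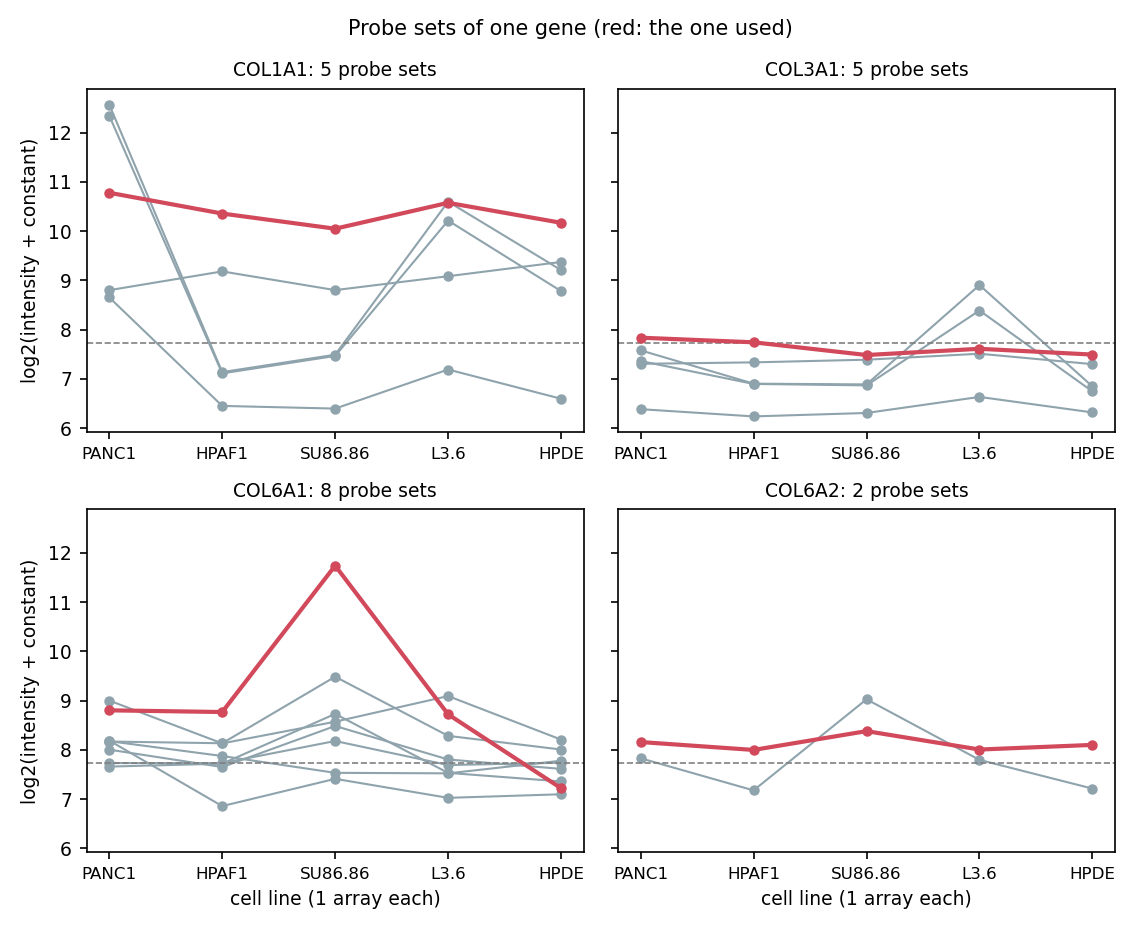
Each line joins the readings of 1 probe set over the 5 cell lines, on a log2 scale of intensity plus 71.1, with the probe set used in red, the others in grey and the background limit dashed. For COL1A1 the red readings span 0.73 while the steepest grey ones span 5.43, and for COL6A1 the red peak in SU86.86 is the widest of 8 probe sets.

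Type VI collagen makes beaded filaments around cells and is assembled from an alpha-1, an alpha-2 and an alpha-3 chain. COL6A1 had intensities of 3353 in SU86.86, 376 in PANC1, 365 in HPAF1, 351 in L3.6 and 78.1 in HPDE. SU86.86 exceeded the next line by 2.94 and the mean of the others by 3.36 (SE 0.72, limma adjusted p = 0.794). Of its 7 other probe sets, all above background, 3 ranged by 2-fold or more, 2 of them with SU86.86 highest and 1 with PANC1. Averaged over all 8 probe sets the difference in SU86.86 was 0.85, and it was -0.04 when those able to match several transcripts were left out, so the size and direction of the COL6A1 value depend on the probe set. COL6A2 lay between 185 and 262 on the probe set used. On its other one it read 451 in SU86.86, 156 in PANC1, 151 in L3.6, 77.3 in HPDE and 73.6 in HPAF1. COL6A1 and COL6A2 are neighbours on chromosome 21, and both were highest in SU86.86 on these readings. COL6A3 was between 64.6 and 76.8 in all 5 lines, at background, as were COL6A5 and COL6A6.

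COL8A1, a short-chain collagen that forms hexagonal networks under endothelium and in the eye, had the widest gap between the highest line and the next of all 43 genes. Its intensity was 2159 in SU86.86, 90.8 in HPDE, 37.6 in PANC1, 35.2 in HPAF1 and 32.3 in L3.6. SU86.86 was the only line above background, 3.78 above HPDE and 4.24 above the mean of the others (SE 0.33, limma adjusted p = 0.210), an SE that rests on background readings. A second probe set read 222 in SU86.86 and at most 24.4 elsewhere, and the remaining one was at background in all 5 lines. Averaged over all 3 the difference was 1.96. Of the 11 fibroblast markers 7 were above background in SU86.86, and their summed log2 level was the highest there. FN1 (2353), ACTA2 (467), THY1 (350.1) and PDGFRA (258) were each highest in SU86.86, though PDGFRA ranged by only 0.23 and ACTA2 by 0.69. Of the other members, DCN was lowest in SU86.86 (173), VIM and DES were highest in PANC1, and LUM in HPAF1. PDGFRB, FAP and POSTN were below background in all 5 lines. The part of these genes in the COL8A1 and COL6A1 readings was not tested. COL8A2 ranged by 0.33 and COL10A1, the collagen of hypertrophic cartilage, by 0.51.

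The FACIT collagens, which sit on the surface of fibrils and link them to other matrix, varied in 4 of the 8 retained genes. COL16A1 had intensities of 1374 in HPDE, 579 in SU86.86, 82.9 in L3.6, 65.6 in PANC1 and 51.0 in HPAF1, so that HPDE and SU86.86 were the only lines above background. HPDE was 1.15 above SU86.86 and 2.84 above the mean of the others (SE 1.03, limma adjusted p = 0.590). COL12A1, which binds type I fibrils, was at 494 in SU86.86, 251 in HPDE, 209 in L3.6, 116 in PANC1 and 37.4 in HPAF1. The difference in SU86.86 was 1.45 (SE 0.66, limma adjusted p = 0.998), or 0.56 averaged over all 5 probe sets, and a second probe set had HPDE highest and HPAF1 lowest. COL9A3 was at 286 in PANC1, 206 in SU86.86, 148 in HPAF1, 88.7 in L3.6 and 57.2 in HPDE. COL21A1 was at 240.3 in PANC1, the only line above background, and at most 94.3 in the others. COL9A1, COL9A2, COL14A1 and COL22A1 ranged by at most 0.27. COL16A1, COL9A3 and COL21A1 have 1 probe set each.

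COL17A1 was not among the 43 genes. Among the 3 transmembrane collagens measured, COL13A1, found at cell-matrix contacts, was above background in all 5 lines. It read 507 in HPAF1 and between 215 and 227 in the others, a difference of 0.99 (SE 0.17, limma adjusted p = 0.159). It was the only collagen ranging by 2-fold or more with its highest level in HPAF1. A second probe set had HPAF1 highest and another SU86.86, so that assignment depends on the probe set. COL23A1 and COL25A1 were at background. COL26A1, which belongs to none of these classes, ranged by 0.21.

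Set against HPDE alone, with 1 array on each side and no test, PANC1 had 6 collagens at least 2-fold higher and 6 lower, against 8.47% and 9.26% of all genes. HPAF1 had 2 higher and 7 lower, against 7.77% and 9.27%. SU86.86 had 4 higher and 5 lower, against 8.44% and 7.72%, and L3.6 3 higher and 2 lower, against 6.55% and 8.59%. COL16A1 was lower than in HPDE in all 4 carcinoma lines, by 1.15 in SU86.86 to 3.57 in HPAF1. COL6A1 was higher in all 4 on the probe set used, where HPDE was at background. On another of its probe sets HPDE read 149, above SU86.86 at 114 and L3.6 at 113, and with probe sets able to match several transcripts left out no collagen was 2-fold higher in HPAF1 (0 in place of 2). On the probe sets used, COL4A1, COL4A2, COL4A5 and COL4A6 were at least 2-fold lower than in HPDE in every carcinoma line except L3.6. There COL4A1, COL4A2 and COL4A6 were higher by 0.97, 1.28 and 0.69, and COL4A5 differed by -0.38. All these differences share the HPDE array.

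Collagen chains need a dedicated set of enzymes before and after secretion. Of 14 measured hydroxylation and glycosylation genes, 13 were above background, all of them in every line, 10 ranged by 2-fold or more, against 42.4% of all genes, and 0 passed limma. Of all genes 75.3% were above background in at least 1 line, and 74.2% of those in every line. In PANC1 3 of the listed genes were higher by 2-fold and 0 lower, against 5.38% and 5.54% of all genes. The median difference there was 0.53, against 0.00 over all genes. In HPDE 5 were lower and 0 higher, against 5.57% and 6.48%, with a median of -0.33 against -0.03. P3H2, a prolyl 3-hydroxylase with type IV collagen among its substrates, was at 4153 in PANC1, 398 in L3.6, 284 in SU86.86, 182 in HPDE and 149 in HPAF1. The high P3H2 reading was thus in a line where COL4A1, COL4A2 and COL4A6 were at background, and its other probe set above background ranged by under 2-fold. PLOD2, which hydroxylates lysines that later form cross-links, was at 2531 in PANC1, 1440.0 in SU86.86, 1376 in L3.6, 443 in HPAF1 and 442 in HPDE. PLOD3, a lysyl hydroxylase that also glycosylates, ran from 1002 in HPDE to 3878 in HPAF1, and P3H1, another prolyl 3-hydroxylase, from 165 in HPAF1 to 765 in PANC1.

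All 10 genes of the folding and export list were above background in every line, against 74.2% of all retained genes, 6 ranged by 2-fold or more, against 42.4%, and 0 passed limma. MIA2, a partner in the export of large cargo from the endoplasmic reticulum, was at 2284 in HPAF1 and 2185 in HPDE against 304 to 401 in the other lines. TMEM38B, a potassium channel of the endoplasmic reticulum, ran from 409 in HPAF1 to 1654 in HPDE. The coat proteins SEC24D and SEC23A were both highest in HPAF1 (756 and 4357) and lowest in L3.6 (233 and 1657). SERPINH1, the collagen chaperone, was highest in L3.6 (3635) and between 1529 and 2517 in the other lines.

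Of 15 propeptide cleavage and cross-linking genes, 11 were above background in at least 1 line, against 75.3% of all genes, 7 ranged by 2-fold or more, against 42.4%, and 0 passed limma. In SU86.86 4 were higher by 2-fold (ADAMTS3, LOX, LOXL1 and LOXL2) and 0 lower, against 5.29% and 2.59%. ADAMTS3 (168) and LOX were above background only in SU86.86, so they passed the level filter through that line. LOXL2, a lysyl oxidase-like enzyme that cross-links type IV collagen, was at 2764 in SU86.86, 1041 in PANC1, 436 in L3.6, 152 in HPAF1 and 58.2 in HPDE. Of its 3 other probe sets above background only 1 ranged by 2-fold or more, also with SU86.86 highest and HPDE lowest. LOX, the founding lysyl oxidase, was at 490.04 in SU86.86 and at most 130.2 elsewhere, and its 2 other probe sets were also highest in SU86.86. LOXL1, a further member, was at 666 in SU86.86, 618 in L3.6, 430.4 in PANC1, 289 in HPDE and 39.0 in HPAF1. PCOLCE2, an enhancer of propeptide cleavage, was at 739.9 in PANC1 and 111 in HPDE, its highest and lowest lines. In HPAF1 2 genes of this list were higher by 2-fold (LOXL3 and LOXL4, further lysyl oxidase-like enzymes, at 660 and 488) and 2 lower (LOXL1 and LOXL2), against 6.96% and 6.3% of all genes.

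**Figure D4:**
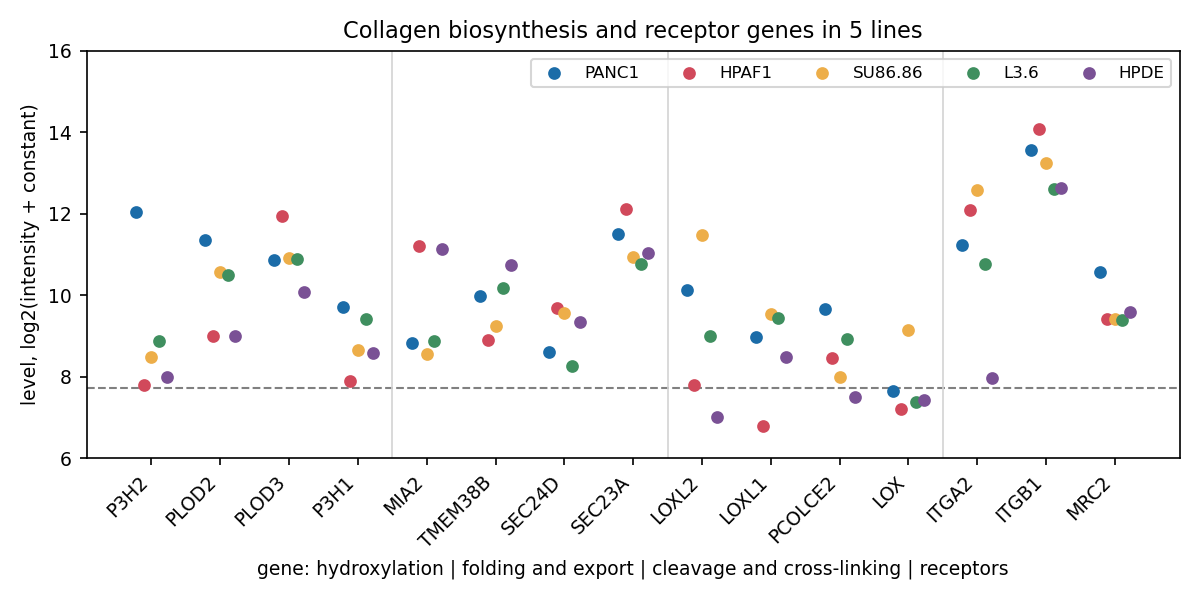
Each point is 1 line (1 array) on a log2 scale of intensity plus 71.1, for the genes with the widest range in 4 lists set apart by grey rules, with the background limit dashed. P3H2 stands highest in PANC1, LOXL2 and LOX in SU86.86, and ITGA2 lowest in HPDE.

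Of 9 measured collagen receptors, 7 were above background, against 75.3% of all genes, 3 ranged by 2-fold or more, against 42.4%, and 0 passed limma. ITGA2, the alpha chain of the main epithelial collagen receptor, was at 6088 in SU86.86, 4279 in HPAF1, 2348 in PANC1, 1663 in L3.6 and 179 in HPDE. Its partner ITGB1 was at 17292 in HPAF1 and 12121 in PANC1, and lowest in L3.6 (6180) and HPDE (6238). MRC2, which takes up collagen for degradation, was at 1438 in PANC1 and between 603 and 695 in the others. The other MRC2 probe set above background ranged by under 2-fold. Both lines with high type IV readings, L3.6 and HPDE, had the lowest readings of ITGA2 and ITGB1, and of 3 other ITGB1 probe sets 1 was lowest in L3.6. ITGA1, another collagen-binding alpha chain, was at background, and ITGA10, ITGA11 and DDR2, a receptor tyrosine kinase for fibrillar collagen, ranged by at most 0.48.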

How the data were processed

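Expression was measured on 1 array for each of 5 cell lines. Per the labels' protocols, RNA was extracted with a commercial kit and labelled in one cycle. The authors deposited an intensity, on a linear scale, for each of 54675 probe sets. Their summarisation, scaling and background correction are not given in the sources used here. No further normalization was applied, since array medians differed by 0.04 on the log2 scale.

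Intensities were transformed as log2(value + 71.1), the constant being the 25th percentile. Of the probe sets, 41091 carried 1 gene symbol, and 41037 of these were matched to current RefSeq symbols (GRCh38.p14). No collagen symbol stood on a probe set with several. Each gene was represented by its probe set of highest mean, leaving 19775 genes, of which 14894 reached the median of all probe sets (140) on at least 1 array. Differences between a line and the average of the remaining 4 were tested in R 4.3.3 with limma 3.58.1 (3 residual degrees of freedom, two-sided, Benjamini-Hochberg). The script was tested on simulated data.

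Every collagen above background was named, with values for those ranging by 2-fold or more, and up to 4 members of each other list with the widest range. SERPINH1, ADAMTS3, LOXL3, LOXL4, ITGA1, ITGA11 and DDR2 were named in addition to those members. Probe sets that disagreed were described after their values were seen. The members and lists were chosen with earlier results of these data known. Sequences came from RefSeq promoters, which matched 31 of the 43 genes. Alternatives varied the constant, level filter, probe set choice and normalization, and left out each line.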

Additional observations from a re-analysis of the deposited data

How the results depend on the processing

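No paired analysis was possible because each line has a single array and no shared culture or batch is recorded. For each of the 16 collagens ranging by 2-fold or more, the line compared was its highest in these same values. Changing the level filter or leaving out another line could therefore not reverse its difference from the other lines' mean. With other constants, probe sets or normalization the difference stayed positive, except for COL6A1 in SU86.86. There it was -0.037 when probe sets able to match several transcripts were left out. COL4A5, COL9A3, COL13A1, COL18A1 and COL21A1 had no value under that setting. With no level filter 1 collagen (COL11A1) passed limma in PANC1, at an adjusted p of 0.0434, and under the other settings 0 passed in any line. With the level filter at the 75th percentile 15 collagens were above it instead of 32. With probe sets able to match several transcripts left out, 9 of the 23 collagens retained ranged by 2-fold. Under that setting 2 were higher in PANC1, 3 higher in L3.6 and 0 lower in HPDE. Against HPDE alone 1 was higher in L3.6, 1 in SU86.86, 0 in HPAF1 and 2 in PANC1. With the mean of all probe sets 2 were higher and 2 lower in SU86.86, 1 was lower in HPDE, 3 were lower in PANC1, and 1 was higher in HPAF1 against HPDE. Doubling the added constant also left 1 higher in HPAF1 against HPDE. With no added constant 1 was higher in HPAF1 and 2 were lower in SU86.86, and with quantile normalization 1 was higher in HPAF1. With the probe set of highest single value 1 was higher in HPAF1, 2 were lower in SU86.86 and 5 were higher in L3.6 against HPDE. Leaving out one line at a time moved the lower counts between 0 and 3 in SU86.86, 1 and 4 in L3.6, and 1 and 3 in HPDE. The causes were not tested. Signal over background limits what can be said of the 11 collagens whose readings stayed under 140 in all 5 lines.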
